A study of Homo sapiens with 2 samples.

Results

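The genes of prostaglandin synthesis, breakdown and response were examined in U87 cells, an established human glioblastoma line, after 72 h with the curcumin analog CCA-1.1 or with its vehicle DMSO. The set holds 10 genes of the 41582 in the transcript table, chosen by their place in the pathway. It was drawn up after the value of PTGS2 had been seen, so the difference of PTGS2 chose the set in part and is given as a description. The cells were labelled wild type and grew in RPMI with FBS, and the dose of CCA-1.1 in the sequenced culture is not given in the sources used here. The DMSO group and the CCA-1.1 group had 1 library each, so no value has a replicate check, no test was made, and an effect of CCA-1.1 and a difference between these cultures cannot be told apart.

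Prostaglandins are short-range lipid signals made from arachidonic acid, a fatty acid that phospholipases release from membranes. The cyclooxygenases COX-1 and COX-2 convert it to an unstable intermediate, PGH2, and terminal synthases turn PGH2 into PGE2, PGD2, prostacyclin or thromboxane. Gliomas are known to make PGE2, which acts through EP receptors on the cell surface, and COX-2 is the inducible enzyme at which many anti-inflammatory drugs, curcumin among them, have been studied. The prediction work that preceded the sequencing also placed both cyclooxygenases and HPGD among candidate protein targets of CCA-1.1. The comparison of the 2 libraries gives their mRNA levels with CCA-1.1 and with DMSO, and does not address binding to the proteins.

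Levels are in TPM, which the authors obtained with Kallisto and which scale reads by transcript length and library total, so that genes can be compared per length. For each gene the TPM of all its transcripts was summed. Each difference is log2((CCA-1.1 TPM + 1) / (DMSO TPM + 1)). Adding 1 TPM makes the ratio of weakly expressed genes look smaller than it is. The read depth does not follow from TPM, so no counting error is given. The line carried high levels of mesenchymal markers, such as VIM at 3217 TPM with DMSO and 3106 TPM with CCA-1.1, and 9 of its 11 glial and mesenchymal markers were at 1 TPM or more in both libraries. Some of these markers were lower in CCA-1.1, as PTGS2 was, among them TNC at 162.7 TPM and 96.7 TPM (log2 difference -0.74). CD44 was at 607.4 TPM and 472.6 TPM (-0.36) and FN1 at 11241 TPM and 9088 TPM (-0.31). Others were higher in CCA-1.1, with OLIG2 at 5.64 TPM and 7.03 TPM (0.27), NES at 7.53 TPM and 7.62 TPM (0.02) and GFAP (0.16). The summed level of the list was 20981 TPM with DMSO and 17910 TPM with CCA-1.1, and its part in the differences described here was not tested. Of the astrocyte markers, GFAP was at 0.41 TPM and 0.57 TPM and S100B was listed at 0 in both. The leukocyte list was low apart from CD68, with PTPRC at 0.09 TPM and 0.07 TPM and 2 of 5 markers at 1 TPM or more in both libraries. The summed leukocyte level, nearly all CD68, was 496.8 TPM and 399.5 TPM. All 3 neuron markers (RBFOX3, SYT1 and SNAP25) were at 1 TPM or more, with sums of 35.2 TPM and 30.8 TPM. Of 4 endothelial markers 1 was at that level in both libraries, and of 3 hepatocyte markers none was. As the RNA came from bulk cultures, fewer expressing cells and less RNA per cell cannot be told apart.

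The 3 genes with the lowest differences in the set were PTGS2 (COX-2), PTGES (mPGES-1, the inducible PGE synthase) and PLA2G4A (cytosolic phospholipase A2). In the pathway PLA2G4A acts first, then PTGS2, then PTGES. The 250 bases before the start of each are shown because their differences were the lowest. Their direction does not set them apart, as 7 of the 10 genes were lower in CCA-1.1. The sequences are from RefSeq on GRCh38.p14, the build of the study, and each is written 5′ to 3′ on the strand of its gene, which is the minus strand for PTGS2 and PTGES and the plus strand for PLA2G4A. The windows are chr1:186680424-186680673, chr9:129753043-129753292 and chr1:186828699-186828948. Capitals mark matches on either strand to the letters of 4 motifs. For C/EBP factors these were TTNCGCAA, and for EGR1, which was marked in PTGES alone, GCGTGGGCG. The core of the cAMP response element (CRE) was searched as TGACG. The box at which transcription machinery assembles near the start of many genes was searched as TATAAA.
PTGS2: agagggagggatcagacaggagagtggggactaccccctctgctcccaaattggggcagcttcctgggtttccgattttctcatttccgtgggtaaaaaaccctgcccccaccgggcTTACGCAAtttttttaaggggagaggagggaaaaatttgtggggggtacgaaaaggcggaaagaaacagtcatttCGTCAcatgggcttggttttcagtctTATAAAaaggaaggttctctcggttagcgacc
PTGES: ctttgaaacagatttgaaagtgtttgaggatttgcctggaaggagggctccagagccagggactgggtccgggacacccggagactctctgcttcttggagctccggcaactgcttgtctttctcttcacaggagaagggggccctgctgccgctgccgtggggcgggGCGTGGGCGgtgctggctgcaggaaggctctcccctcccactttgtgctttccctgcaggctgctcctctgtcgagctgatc
PLA2G4A: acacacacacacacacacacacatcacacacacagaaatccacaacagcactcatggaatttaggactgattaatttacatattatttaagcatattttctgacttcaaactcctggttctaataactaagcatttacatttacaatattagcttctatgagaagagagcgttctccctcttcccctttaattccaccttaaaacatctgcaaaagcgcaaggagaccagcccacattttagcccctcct

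In the PTGS2 window, the C/EBP letters began 133 bases before the start, the CRE core 58 bases before it and the TATAAA letters 32 bases before it. Among 35116 RefSeq promoters cut to the same length, 0.752% held the C/EBP letters, 21.2% the CRE core and 10.7% the TATAAA letters on at least 1 strand. Of the 9 genes of the set that had a promoter in the RefSeq table, PTGS2 alone held the C/EBP letters. In the PTGES window the EGR1 letters began 82 bases before the start and overlapped a GC box (GGGCGG) by all but 1 base of the latter. They were found in 0.720% of all promoters and, within the set, also in 1 promoter of PTGES2. The PLA2G4A window held none of the letters in capitals above, and its bases were 38.8% G or C against 50.4% for PTGS2 and 61.2% for PTGES. The complete CRE (TGACGTCA) and the AP-1 letters (TGANTCA) were in no promoter of the set. E-box letters (CANNTG) were searched too and are not marked above. They were in promoters of 7 of the 9 genes, PTGS2, PTGES and PLA2G4A among them, and in 61.8% of all promoters. GC box letters were in promoters of 6 of the 9 genes and in 42.6% of all promoters. PTGIS was not in the promoter table. A match of letters describes the sequence alone.

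PTGS2 (Entrez 5743, chromosome 1, 186671791 to 186680423) was at 32.7 TPM with DMSO and 13.3 TPM with CCA-1.1. The CCA-1.1 library was thus 2.46-fold lower, with a difference of -1.24 between the libraries. The table lists a single PTGS2 transcript (NM_000963.4), so no division of reads among isoforms enters this value. PTGS2 was the only gene of the set past 2-fold, and it was lower. Of all 41582 genes, 1.53% were past 2-fold, 0.714% lower and 0.815% higher. With a minimum mean of 1 TPM the share over genes of every type was 3.56%. Of the 12041 protein-coding genes that averaged 1 TPM or more, 0.191% were lower by that much and 0.149% higher. Among the 7906 protein-coding genes that averaged 10 TPM or more, 7 had a lower difference than PTGS2.

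PTGS1 (chromosome 9, 122370533 to 122395703), which encodes COX-1, the constitutive cyclooxygenase of many tissues, was listed at 0 in DMSO and at 0.04 TPM in CCA-1.1. Of its 7 transcripts, 5 were at 0 in both libraries. PTGS2 therefore held 99.7% of the summed TPM of both cyclooxygenases in CCA-1.1 treated cells and all of it in DMSO. The cyclooxygenase mRNA of this line was that of COX-2 in either condition, and PTGS1 was near 0 in both.

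PTGES (chromosome 9, 129738349 to 129753042) had the highest level of the set in both libraries, at 64.6 TPM with DMSO and 43.0 TPM with CCA-1.1. It was lower in CCA-1.1 by less than 2-fold, with a difference of -0.57. It also has a single listed transcript (NM_004878.5). Of the 7906 genes above, 46 had a lower difference. Since PTGES was lower by a smaller factor than PTGS2, the ratio of PTGES to PTGS2 was 1.98 with DMSO and 3.24 with CCA-1.1.

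PTGES2 (chromosome 9, 128120693 to 128128440), the membrane-associated PGE synthase that is not inducible, was at 20.9 TPM with DMSO and 18.8 TPM with CCA-1.1 (difference -0.14). The ratio of PTGES to PTGES2 was 3.09 with DMSO and 2.29 with CCA-1.1. The inducible synthase was above its relative in both libraries, by less in the treated cells.

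PLA2G4A (chromosome 1, 186828949 to 186988981), which releases arachidonic acid from membranes, was at 4.46 TPM with DMSO and 2.94 TPM with CCA-1.1. The gene was 1.52-fold lower with CCA-1.1 (difference -0.47). Among 4135 protein-coding genes averaging 1 to 10 TPM, 2.52% had a lower difference, and the 5th percentile was -0.37. The difference did not lie in its main transcript. NM_024420.3 was at 2.61 TPM with DMSO and 2.68 TPM with CCA-1.1, while the other 4 listed transcripts together were at 1.85 TPM and 0.26 TPM. Of these, XM_011509642.3 went from 0.80 TPM to a listed 0, and NM_001311193.2 was at 0.69 TPM and 0.13 TPM. With curated transcripts alone, those with NM_ identifiers, the difference of PLA2G4A was -0.17. Kallisto assigns reads shared by isoforms by estimation, so the values of single transcripts are less certain than their sum.

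**Figure D1:**
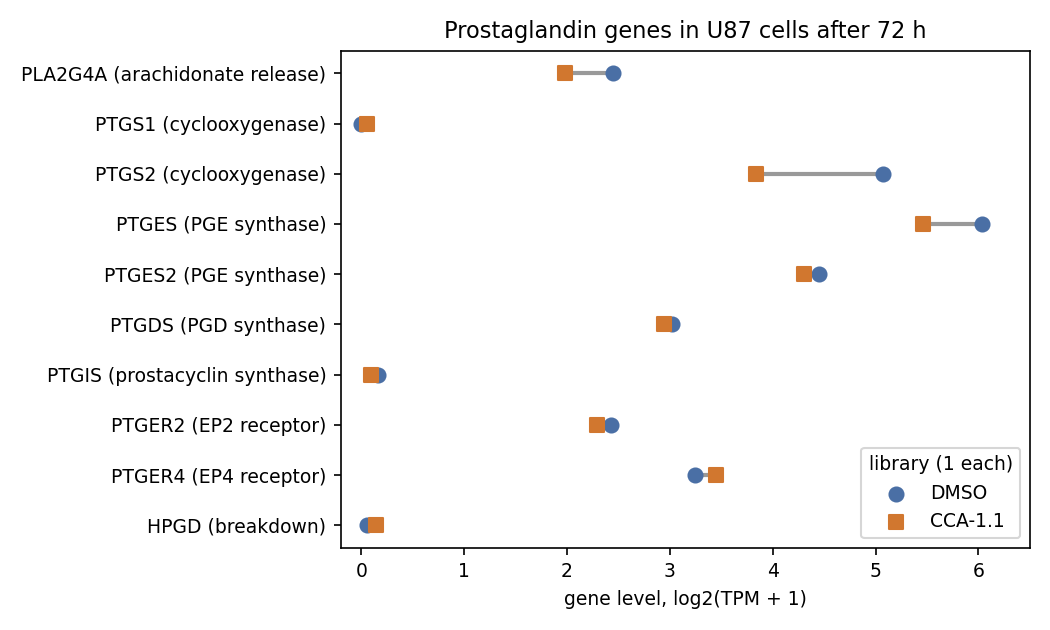
Level of each gene, as log2(TPM + 1) on the horizontal axis, in the DMSO library (circles) and the CCA-1.1 library (squares), 1 library each, ordered by place in the pathway. The longest line is that of PTGS2, from 32.7 TPM to 13.3 TPM, followed by PTGES and PLA2G4A, while PTGS1, PTGIS and HPGD lie near 0 in both libraries.

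The set also holds a PGD2 synthase and the prostacyclin synthase. PTGDS (chromosome 9, 136977504 to 136981742), the lipocalin-type PGD synthase that is abundant in brain, was at 7.11 TPM with DMSO and 6.71 TPM with CCA-1.1 (difference -0.07). PTGIS (chromosome 20, 49503874 to 49568137), the prostacyclin synthase, was at 0.12 TPM and 0.07 TPM. In both libraries PTGES was thus the highest of the terminal synthases of the set, and prostacyclin synthase mRNA was well under 1 TPM.

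PTGER4 (chromosome 5, 40679915 to 40746800) and PTGER2 (chromosome 14, 52314312 to 52328598) encode EP4 and EP2, the PGE2 receptors that raise cAMP. PTGER4 was at 8.45 TPM with DMSO and 9.95 TPM with CCA-1.1 (difference 0.21), and was the only gene of the set above 1 TPM that was higher in CCA-1.1. PTGER2 was at 4.37 TPM and 3.88 TPM (difference -0.14). Both differences lay between the 5th and 95th percentiles of genes at their level, which were -0.37 and 0.44. PTGER4 held 64.6% of the summed TPM of the 4 EP receptor genes in DMSO and 71.1% in CCA-1.1, and PTGER2 held 33.4% and 27.7%. The curated transcript NM_000958.3 of PTGER4 was higher by 0.48 TPM, and its 5 predicted transcripts, higher by 1.02 TPM in sum, were together at 1.02 TPM with DMSO and 2.04 TPM with CCA-1.1.

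HPGD (chromosome 4, 174490175 to 174522893), the 15-hydroxyprostaglandin dehydrogenase that begins the breakdown of PGE2, was at 0.04 TPM with DMSO and 0.10 TPM with CCA-1.1. Of its 8 transcripts, 6 were at 0 in both libraries, and the remaining 2 were each above 0 in a different library. At such values no difference can be read from TPM.

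**Figure D2:**
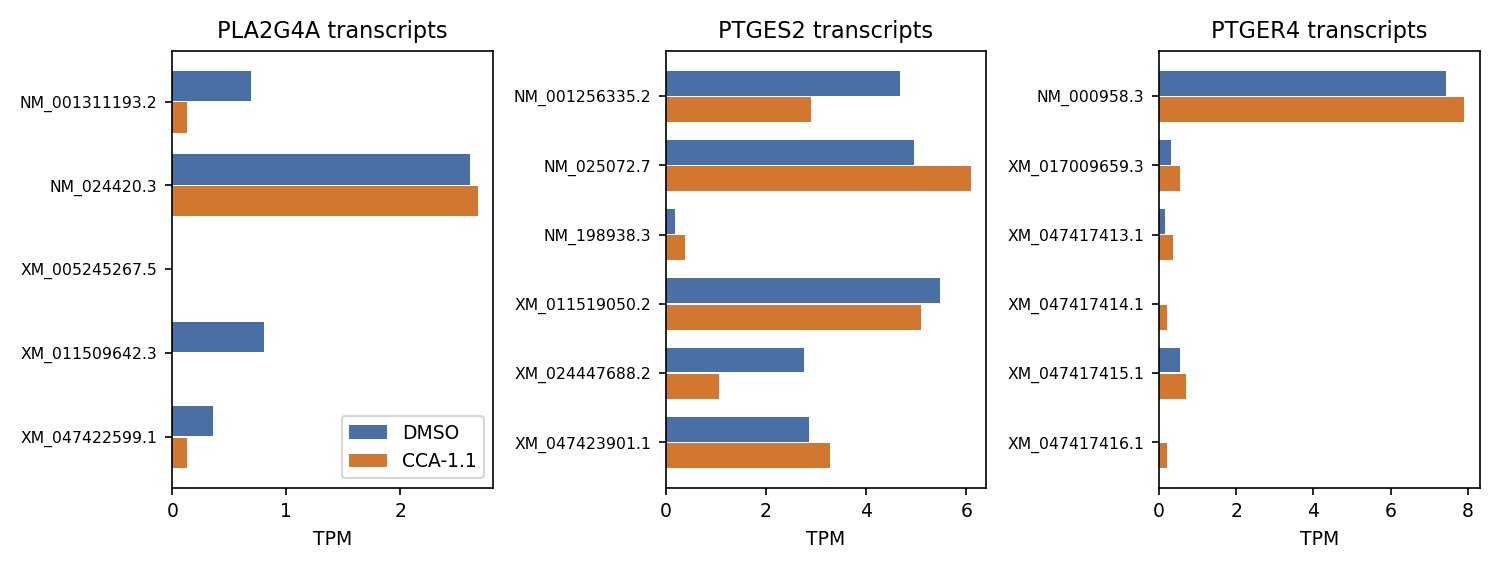
TPM (horizontal axes) of every listed transcript of PLA2G4A, PTGES2 and PTGER4 in the DMSO and CCA-1.1 libraries, 1 library each. The PLA2G4A transcript NM_024420.3 has bars of 2.61 TPM and 2.68 TPM while its minor transcripts are shorter in CCA-1.1, and the PTGES2 bars go both ways.

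The PTGES2 total also hid opposite values of its transcripts. NM_025072.7 was at 4.96 TPM with DMSO and 6.10 TPM with CCA-1.1, which is 23.7% and 32.4% of the gene. NM_001256335.2 was at 4.68 TPM and 2.90 TPM, and the predicted XM_024447688.2 at 2.76 TPM and 1.07 TPM. XM_011519050.2 held 26.2% and 27.0% of the gene and XM_047423901.1 held 13.7% and 17.4%. No single transcript of the set other than that of PTGS2 passed 2-fold on the log2(TPM + 1) scale.

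**Figure D3:**
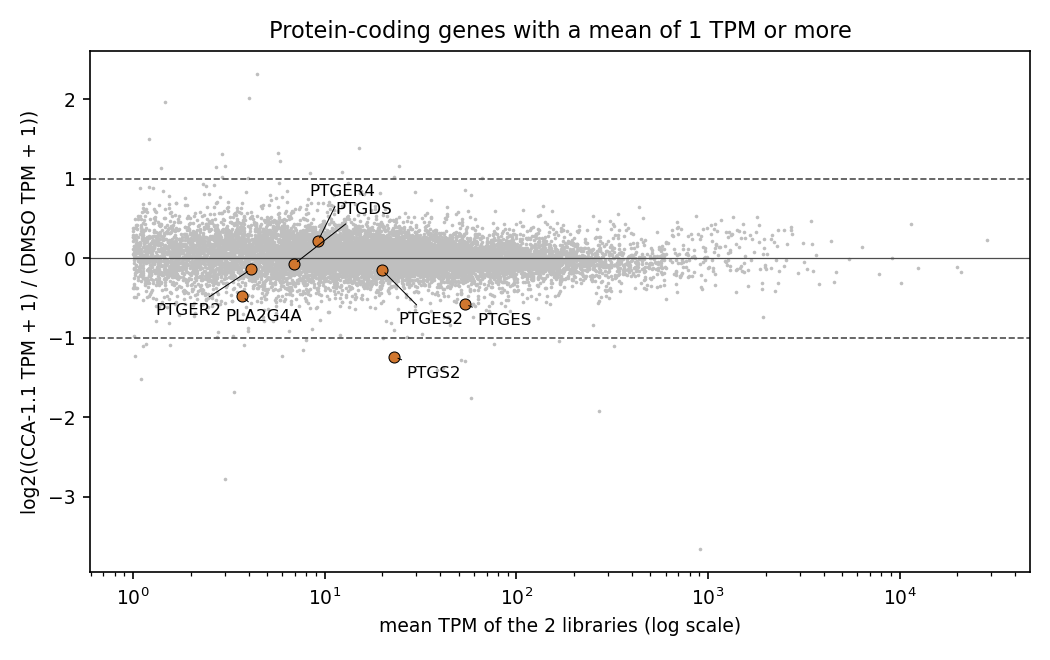
Difference between the libraries, log2((CCA-1.1 TPM + 1) / (DMSO TPM + 1)), against mean TPM on a log scale for 12041 protein-coding genes averaging 1 TPM or more (grey), with the 7 genes of the set that reach this level in orange and dashed lines at 2-fold. PTGS2 lies below the lower line at -1.24 and PTGES at the lower edge of the cloud. PLA2G4A lies in the lower part of the cloud, with 2.52% of genes averaging 1 to 10 TPM below it. The other 4 lie within the cloud.

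Taking all 10 genes, 7 were lower and 3 were higher in CCA-1.1, with a median difference of -0.11. Over all 41582 genes, 12563 were lower and 17060 higher, and 11281 were at 0 in both libraries. Their median was 0. The 3 higher genes of the set were PTGER4, PTGS1 and HPGD, of which the last pair was at or under 0.10 TPM. The 7 genes with a mean of 1 TPM or more had a median of -0.14, with 6 lower and 1 higher. Among the 12041 protein-coding genes at that level the median was 0.02, with 5537 lower and 6479 higher.

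By position, 4 of the 10 genes (PTGS1, PTGES, PTGES2 and PTGDS) lie on chromosome 9, and PTGS2 and PLA2G4A lie on chromosome 1 with 148.5 kb between them, on opposite strands and with their starts facing each other. In that interval, 230 bases before the start of PTGS2, lies PACERR (NR_125801.1), a long non-coding RNA on the opposite strand. PACERR was at 0.87 TPM with DMSO and 1.11 TPM with CCA-1.1 (difference 0.17), higher where PTGS2 and PLA2G4A were lower. The values were 0.24 TPM apart, and 11.6% of protein-coding genes averaging below 1 TPM had a higher difference. No direction is read from values this small. The level of PACERR was close to 1 TPM, where the difference scale is compressed.

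The genes whose difference was nearest to that of PTGS2, among protein-coding genes averaging 10 TPM or more and over these 2 libraries, were CXCL8, G0S2, SAA1, BOLA2B and SAA2. The chemokine gene CXCL8 was at 73.2 TPM with DMSO and 29.6 TPM with CCA-1.1 (difference -1.28). G0S2, an inhibitor of triglyceride lipase, was at 77.1 TPM and 30.9 TPM (difference -1.29). The acute phase gene SAA1 was at 443.2 TPM and 205.5 TPM and SAA2 at 103.8 TPM and 48.7 TPM, and BOLA2B was at 60.1 TPM and 22.5 TPM. SAA1 and SAA2 resemble each other closely, as BOLA2B does its copy BOLA2, so the division of reads between such genes is uncertain.

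The rest of the pathway was read from lists of 94 further genes, of which 71 had a mean of 1 TPM or more. None of the 94 was higher by more than 2-fold and 1 was lower, the phosphodiesterase PDE4B. The median difference of the 71 was -0.06. The counts of lower and higher genes given below stand beside 12563 lower and 17060 higher over all 41582 genes. Most listed genes averaged 1 TPM or more, and of the 12041 protein-coding genes at that level 5537 were lower and 6479 higher.

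Of 16 other genes of arachidonate release, 8 were lower, 5 were higher and 3 were at 0 in both libraries, with none past 2-fold. The 13 genes at a mean of 1 TPM or more had a median of -0.10. The lowest of them was the lysosomal phospholipase PLA2G15, at 49.9 TPM with DMSO and 41.9 TPM with CCA-1.1 (difference -0.25), and the highest PLA2G4B, at 1.84 TPM and 3.43 TPM (difference 0.64), both named after their values were seen. The monoglyceride lipase MGLL, which frees arachidonate from 2-arachidonoylglycerol in brain, was the highest, at 91.5 TPM with DMSO and 92.7 TPM with CCA-1.1. PLAAT3 was at 72.7 TPM and 80.3 TPM, and PNPLA8 at 77.4 TPM and 71.7 TPM. The relative of PLA2G4A with the highest level, PLA2G4C, named here after its value was seen, was at 48.4 TPM and 50.5 TPM. It was above PLA2G4A in both libraries.

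Of 8 other prostanoid synthases and reductases, 7 were lower and 1 was higher, with none past 2-fold and a median of -0.12. AKR1B1, an aldose reductase that can form PGF2alpha, was at 4202 TPM with DMSO and 3347 TPM with CCA-1.1 (difference -0.33). PTGES3, a cochaperone of HSP90 also described as the cytosolic PGE synthase, was at 713.5 TPM and 684.0 TPM (difference -0.06). The carbonyl reductase CBR1, which can reduce PGE2, was at 493.8 TPM and 436.5 TPM. The differences of PTGES2 and PTGES3 were thus both smaller in size than the -0.57 of PTGES.

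The other prostanoid receptors were low, with 1 of 7 at a mean of 1 TPM or more. This was TBXA2R, the thromboxane receptor, at 3.54 TPM with DMSO and 3.16 TPM with CCA-1.1. PTGIR was at 0.55 TPM and 0.59 TPM and PTGFR at 0.44 TPM and 0.49 TPM. EP2 and EP4 together held 71.5% of the summed TPM of 9 prostanoid receptor genes in DMSO and 73.6% in CCA-1.1.

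Of 5 genes of prostaglandin transport and breakdown, 4 were higher and 1 was lower, with a median of 0.15 and none past 2-fold. PTGR1, a reductase that acts after HPGD, was at 41.7 TPM with DMSO and 47.8 TPM with CCA-1.1. PTGR2 was at 16.4 TPM and 18.3 TPM, and the exporter ABCC4 at 14.9 TPM and 16.2 TPM. SLCO2A1, the importer that delivers PGE2 to HPGD, was at 0.06 TPM and 0.04 TPM and is named after its value was seen. The importer and HPGD were thus both near 0 in either library, while the exporter and the later reductases were present.

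The lipoxygenase branch, whose products include the leukotrienes made from the same arachidonate, had 4 of 13 genes at a mean of 1 TPM or more. LTA4H, the leukotriene A4 hydrolase, was at 7.75 TPM with DMSO and 13.3 TPM with CCA-1.1 (difference 0.71) and the largest in the higher direction among the 94 genes. ALOX12 was at 7.95 TPM and 9.06 TPM, and ALOXE3 at 6.24 TPM and 6.31 TPM. ALOX5, the 5-lipoxygenase that makes the substrate of LTA4H, was listed at 0 with DMSO and at 0.05 TPM with CCA-1.1, and is named after its value was seen.

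Factors that act on the PTGS2 promoter or on the decay of its mRNA were counted as a list of 25 genes. Of these, 15 were lower, 9 were higher and 1 was at 0 in both libraries, with a median of -0.05 and none past 2-fold. CEBPB, which encodes a factor that binds C/EBP sequences, was at 521.0 TPM with DMSO and 401.2 TPM with CCA-1.1 (difference -0.38). ZFP36L1, which promotes decay of AU-rich mRNAs, was at 508.5 TPM and 471.1 TPM, and JUN at 237.1 TPM and 226.0 TPM. Others are named after their values were seen. The lowest difference was that of IL1B, a cytokine that induces PTGS2, at 74.6 TPM and 44.2 TPM (-0.74). CEBPD was next, at 75.6 TPM and 50.8 TPM (-0.56). RELA, a subunit of NF-kB, was at 119.8 TPM and 114.7 TPM (-0.06). CREB1, which binds the CRE, had the highest difference of the list, at 17.0 TPM and 21.5 TPM (0.33). EGR1, whose letters were marked in PTGES alone, was at 5.87 TPM and 6.30 TPM (0.09). Of protein-coding genes averaging 1 to 10 TPM, 56.5% had a lower difference than EGR1. The part of any of these in the level of PTGS2 was not tested.

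Genes of the cAMP response that EP2 and EP4 set off numbered 20, of which 14 were lower and 5 higher, with a median of -0.16. PDE4B, a cAMP phosphodiesterase whose transcription cAMP itself can induce, was at 27.2 TPM with DMSO and 13.1 TPM with CCA-1.1 (difference -1.01), just past 2-fold. Its relative PDE4D was at 1.36 TPM in both, and PDE4A, at 17.0 TPM and 13.8 TPM, had a difference of -0.28. GNAS, the stimulatory G protein subunit, was at 946.2 TPM and 947.1 TPM. PRKAR1A was at 156.6 TPM and 156.1 TPM, and ARRB2 at 114.3 TPM and 114.2 TPM. The cAMP-induced nuclear receptor genes NR4A1, NR4A2 and NR4A3, named with PDE4A and PDE4D after their values were seen, had differences of -0.17, -0.40 and -0.57. The 3 most abundant genes of the list, which encode a G protein subunit, a kinase subunit and an arrestin, thus had nearly equal levels in the libraries.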

How the data were processed

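RNA from U87 cells treated with DMSO or CCA-1.1 for 72 h was sequenced by the authors as 1 library per condition, after mRNA enrichment. Per the labels, reads were checked with FastQC 0.11.9 and MultiQC 1.1. The authors quantified transcripts with Kallisto against GRCh38.p14 and deposited TPM rounded to 2 decimals; the columns sum to 999999 and 1000000 TPM. Depth cannot be recovered from TPM, so count tests do not apply and no p-value was calculated.

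Of 177816 transcripts, 169966 were matched to 41582 RefSeq symbols with version numbers ignored, and TPM was summed per gene. Differences used a pseudocount of 1 TPM, and 2-fold followed the fold criterion of the study. The study used that criterion with EdgeR, beside a p-value cutoff, and reported transcripts. Here it was used alone, on TPM summed per gene. The 10 genes and all lists were chosen with earlier results of these data known. In each list, genes past 2-fold and the 3 with the highest mean TPM were named, and other names are marked. Transcripts holding 10% of their gene or more were eligible for naming. Level ranges (below 1, 1 to 10, 10 to 100 and over 100 TPM) were set after seeing the data. Promoter motifs were chosen with PTGS2 in mind. NF-kB-like letters were also searched, in 2 spellings, and left out after their matches were seen: the longer spelling matched PTGS2 and PTGER4, and the shorter matched most promoters of the set and was common among all promoters. The gene sums and differences were tested on simulated data with planted changes well past 2-fold and little noise, without weak genes. This checks the calculation alone and not the spread of these libraries or the estimated division of reads among isoforms. Python 3.11.15, numpy 2.4.6, pandas 2.3.3 and matplotlib 3.10.9 were used. The alternatives were other pseudocounts, a minimum mean, median-ratio scaling, curated transcripts and versioned identifiers.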

Additional observations from a re-analysis of the deposited data

How the results depend on the processing

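The limits are 1 library per condition and values without read depth. No paired analysis was possible because each condition had 1 library, and for the same reason no library could be left out. PTGS2 stayed past 2-fold and lower in CCA-1.1 with pseudocounts of 0.1 or 0.01 TPM and a minimum mean of 1 TPM. It also did with median-ratio scaling (factor 1.003), curated transcripts, versioned identifiers and, added after seeing the data, no pseudocount. As PTGS2 has a single curated transcript well above 1 TPM, the minimum mean, curated transcripts and versioned identifiers returned the same value. A smaller pseudocount can only widen its ratio. Only the scaling could have brought PTGS2 nearer to 2-fold, and with it the difference was -1.24. No gene of the set changed direction in 66 recomputed values. Of these, 57 moved by less than the spread of genes in the same level range and 9 by more. The spread was taken as 0.5 of the distance from the 16th to the 84th percentile. A change of pseudocount cannot reverse a direction, and the minimum mean and versioned identifiers returned the same values. Direction was thus open to change with median-ratio scaling and curated transcripts alone. With a pseudocount of 0.01 TPM, 3 genes of the set were past 2-fold, 2 of them higher (PTGS1 at 2.32 and HPGD at 1.14), and without a pseudocount 2 were, 1 of them higher (HPGD at 1.32); these genes were at 0.10 TPM or less. Of all genes, 636 were past 2-fold (1.53%), 551 with a minimum mean of 1 TPM (3.56% of the genes that passed it), 2991 with a pseudocount of 0.1 TPM (7.19%) and 6828 with 0.01 TPM (16.4%), as values near 0 pass with a smaller pseudocount.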
